A study of Drosophila melanogaster with 2 samples.

Results

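The trithorax group genes of *Drosophila melanogaster* were examined as targets of CG31388, a ZAD zinc finger protein, meaning one with a zinc-finger-associated domain ahead of its DNA-binding fingers. The 9 genes are the Brahma subunit genes brm, osa, mor and Snr1, the histone methylation genes trx, ash1, ash2 and Rbbp5, and the remodeller gene kis. They were chosen by name, with earlier results of these data known, and are 9 of 13945 protein-coding genes on the assembled chromosome arms. Trithorax group proteins keep developmental genes, the homeotic genes among them, in an active state and oppose the Polycomb group. The Brahma complex is the fly SWI/SNF remodeller, which uses ATP to move nucleosomes. The histone methylation members encode enzymes, or subunits of enzyme complexes, that place methyl groups on histone tails. Kismet remodels chromatin at transcribed genes. Most of these proteins are also used outside homeotic gene control and are present from early embryogenesis.

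All samples were whole embryos of mixed sex, 0 to 16 hours old, from a transgenic fly line with a stable insertion that makes CG31388 carrying green fluorescent protein (GFP) at its C-terminal end. Sonicated chromatin, with fragments of 200 to 800 bp, was precipitated with an antibody against GFP and sequenced (ChIP-seq). There were 2 libraries in 1 group, biological replicates 2 and 4, and no second genotype, treatment or age, so no contrast between conditions was possible. The control that the authors used for calling regions was not analysed here, read depth is unknown, and the labels cite a different protocol document for each replicate. The promoter that drives the tagged protein is not given in the sources used here. Because embryos and both sexes were pooled, strong binding in few cells and weak binding in many cannot be told apart.

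Each deposited region carries a signal, the authors' own enrichment value on a scale that is not stated. It was used to order regions within a list, rank 1 being the strongest. The list made from both libraries together held 28750 candidate regions, here called pooled, with signals of 15.7 to 771 and a median of 21.0. Of these, 1872 were reproducible peaks, those that the authors kept by the irreproducible discovery rate, a measure of agreement between replicates. They were exactly the 1872 strongest pooled regions. The name does not mean that each was found in both replicates, which held for 1837 of them. The weakest reproducible peak had a signal of 53.78 and the strongest other candidate 53.76. Candidates below that level can be background. The list of each replicate held 30000 regions, with a median signal of 8.54 in replicate 2 and 15.6 in replicate 4, so values were compared between replicates by rank or as log2 of the signal over the median of its own list. A region was placed at a promoter when its summit, the position of highest signal, lay within 500 bp of a transcription start site (TSS) of the gene, and in the gene body when the summit lay between the annotated ends of the gene.

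The 9 genes held 53 pooled candidate regions, of which 8 were reproducible peaks. The sequences at the summits of those 8 peaks are shown because they are the places where the tagged protein was found at these genes. Each runs from 50 bp before to 50 bp after the summit, from the dm6 genome (RefSeq), plus strand, 5′ to 3′, in order of pooled signal. Capitals mark TATAAA on either strand and AGTCACT.

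osa, chr3R:17704345-17704445: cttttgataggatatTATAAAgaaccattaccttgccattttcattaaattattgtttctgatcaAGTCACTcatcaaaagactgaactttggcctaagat
trx, chr3R:14283832-14283932: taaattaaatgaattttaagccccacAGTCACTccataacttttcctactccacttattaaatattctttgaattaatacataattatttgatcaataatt
brm, chr3L:15982913-15983013: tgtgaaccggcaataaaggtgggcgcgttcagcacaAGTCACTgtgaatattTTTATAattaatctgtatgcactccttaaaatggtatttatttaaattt
osa, chr3R:17700575-17700675: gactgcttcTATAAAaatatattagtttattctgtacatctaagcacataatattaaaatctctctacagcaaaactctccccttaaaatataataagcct
kis, chr2L:223461-223561: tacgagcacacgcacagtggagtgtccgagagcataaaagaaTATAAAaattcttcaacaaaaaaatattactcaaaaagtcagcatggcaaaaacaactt
Rbbp5, chr3L:20348214-20348314: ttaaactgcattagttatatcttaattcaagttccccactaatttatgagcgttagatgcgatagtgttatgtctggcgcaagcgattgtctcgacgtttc
mor, chr3R:15973019-15973119: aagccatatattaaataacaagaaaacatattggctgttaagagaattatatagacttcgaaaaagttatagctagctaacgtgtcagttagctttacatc
trx, chr3R:14278011-14278111: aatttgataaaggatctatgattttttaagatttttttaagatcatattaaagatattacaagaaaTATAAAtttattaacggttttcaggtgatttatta

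Of the 7 motifs searched on both strands of these windows, TATAAA was found in 5 of 8, at both osa peaks and at those of brm and kis and the weaker one of trx. It was present in 24.1% of all reproducible peaks, in 35.5% of the 110 pooled regions with a signal above 200 and in 13.3% of the other candidates. GCCAT was found in 3 of the 8 windows (the stronger osa peak, kis and mor) and in 13.4% of all peaks. GAGAG was found in 2 (the weaker osa peak and kis) and in 9.99% of all peaks. CGATA was found in 1, that of Rbbp5, and in 13.4% of all peaks. TATCGATA, which contains CGATA, and GGTCACAC and CAGGTA were in none of the 8, and in 1.23%, 0.534% and 1.60% of all peaks. The word AGTCACT was noticed on reading the sequences and is therefore a description only. It stood in the 3 strongest windows, those of osa, trx and brm. It was in 18 of the 1872 peaks (0.962%), those 3 included, and in 0.852% of the other candidates. Above a signal of 200 it was in 4 of the 110 regions (3.64%), including the osa and trx windows where it was noticed. The windows were rich in A and T, with a median GC content of 30.2% (range 17.8% to 38.6%) against 31.7% for all peaks and 40.6% for the other candidates.

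A reproducible peak stood at the promoter of 3 of the 9 genes, brm, mor and Rbbp5. Over all protein-coding genes this share was 10.1% (1411 of 13945). A candidate region of any signal stood at the promoter of 7 of the 9, all but Snr1 and ash2, against 46.5% of all coding genes. With the gene body included, 6 of the 9 held a reproducible peak, these being brm, osa, mor, trx, Rbbp5 and kis, against 13.0% of all coding genes. No test was made of these counts, and the 9 genes were chosen with earlier results of these data known. The map of candidate regions along the 9 genes shows that the strong ones took 2 kinds of place. These were promoters in brm, mor and Rbbp5, and introns in osa, trx and kis. Of the intron peaks, that of kis and the weaker one of osa also lay within 500 bp of the annotated start of a non-coding RNA.

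**Figure D1:**
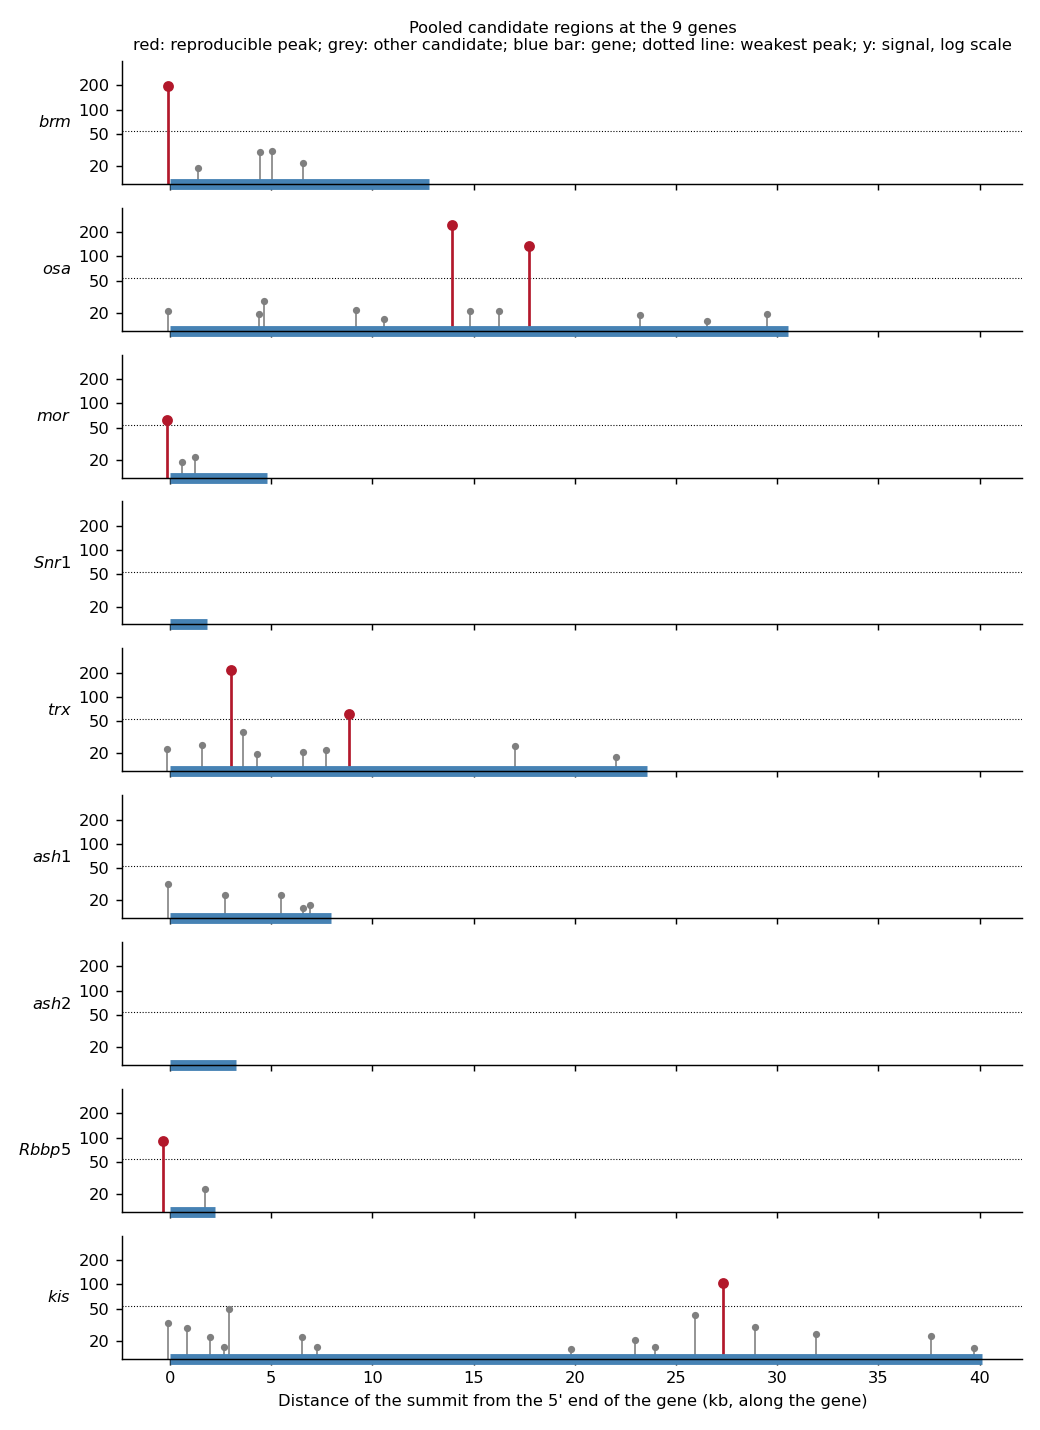
Pooled candidate regions along each of the 9 genes, by distance of the summit from the 5′ end in kb (horizontal) and pooled signal on a log scale (vertical). Red stems are the 8 reproducible peaks, grey stems the other 45 candidates, blue bars the genes, and the dotted line the weakest reproducible peak, at 53.78. The strongest stem is the osa peak at 243, and Snr1 and ash2 have no stem.

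Among the Brahma subunit genes, brm had the strongest promoter region of all 9 genes. It encodes the ATPase that drives the complex and lies on 3L from 15970082 to 15982869, minus strand. The peak at 3L:15982896-15983080 had its summit 94 bp upstream of the brm TSS, and its signal was 65.5 in replicate 2 (rank 148), 129 in replicate 4 (rank 110) and 195 in the pooled list (rank 115). On the log2 scale over each list's median this was 2.94 and 3.05, 2.99 ± 0.08 (SD, n = 2), so both replicates placed it high and close together. Counting brm itself, 112 of the 6482 coding genes with a promoter candidate had a promoter signal as high or higher. The other 4 candidates of brm were in introns, with signals of 18.9 to 30.8, all below the weakest peak. The candidate of 30.2 was also 102 bp from the TSS of CG17028, a coding gene on the opposite strand. The rest were 598 bp or more from the TSS of any other gene.

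mor encodes the Moira scaffold subunit of the complex and lies on 3R from 15968134 to 15972913, minus strand. Its peak at 3R:15972871-15973266 had its summit 156 bp upstream of the TSS, with a signal of 16.7 in replicate 2 (rank 2772), 44.7 in replicate 4 (rank 1215) and 62.8 in the pooled list (rank 1439). This was the weakest of the 8 by mean, 1.24 ± 0.39 (SD, n = 2) on the log2 scale over the list median, and it stood higher in replicate 4 than in replicate 2. In replicate 2 it ranked below the first 1872 regions of that library. Of the coding genes with a promoter candidate, 1127 had a promoter signal at least as high.

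osa encodes the subunit that marks the BAP form of the Brahma complex and is one of the long genes, on 3R from 17687818 to 17718350, minus strand. Its promoter held no reproducible peak. The promoter candidate, 91 bp upstream of the TSS, had a pooled signal of 21.0 (rank 14395). The strongest region at that promoter was 8.90 in replicate 2 (rank 13555) and 31.2 in replicate 4 (rank 2418), so replicate 4 placed the osa promoter far higher than replicate 2. Inside the gene stood 2 peaks, 3770 bp apart, in the same 8067 bp intron, which all 6 annotated transcripts share. The stronger, at 3R:17704313-17704488, was 13955 bp from the TSS, with a signal of 87.9 in replicate 2 (rank 72), 152 in replicate 4 (rank 77) and 243 in the pooled list (rank 71). It was the strongest region at any of the 9 genes in every list. Among the 825 peaks more than 500 bp from any annotated TSS it ranked 22. The weaker, at 3R:17700427-17700822 and 17725 bp from the TSS, had 54.9 (rank 225), 78.6 (rank 351) and 135 (rank 268) in the same order of lists. The annotation places a non-coding RNA on the opposite strand near each. The stronger summit was 700 bp from the start of lncRNA:CR46035 and within one of its exons, and the weaker was 116 bp from the start of lncRNA:CR46036.

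Snr1, the fly SNF5-type core subunit, on 3R from 5470926 to 5472754, plus strand, held no pooled candidate region. The nearest pooled summit was 2970 bp from the Snr1 TSS and beyond the 3′ end of the gene, with a signal of 24.5 and rank 9468. Each replicate alone had a region within 500 bp of the Snr1 TSS, with a signal of 7.06 in replicate 2 (rank 23141, 421 bp away) and 21.0 in replicate 4 (rank 6419, 45 bp away). These lay at different positions, and neither list placed Snr1 near the strong end.

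**Figure D2:**
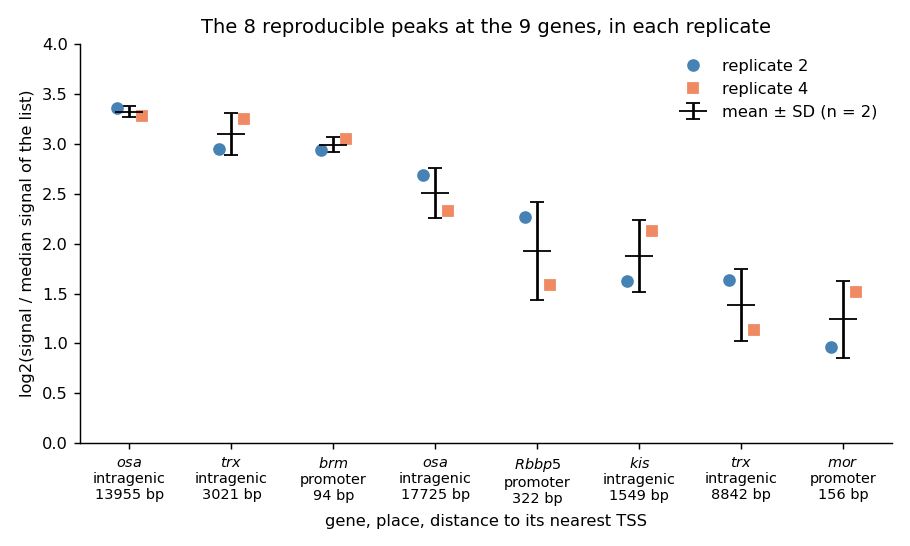
The 8 reproducible peaks at the trithorax group genes, as log2 of the signal over the median signal of the replicate's own list. Circles are replicate 2, squares replicate 4, and bars the mean ± SD (n = 2), and each column names the gene, the place and the distance to its nearest TSS. The columns fall from 3.32 at osa to 1.24 at mor, with the replicates of brm and of the stronger osa peak close together and those of Rbbp5 far apart.

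Among the histone methylation genes, trx was marked in its first intron. It encodes a histone methyltransferase that keeps homeotic genes active and lies on 3R from 14263358 to 14286903, minus strand. The stronger of its 2 peaks, at 3R:14283795-14283994, was 3021 bp downstream of the TSS, with a signal of 66.0 in replicate 2 (rank 146), 148 in replicate 4 (rank 80) and 218 in the pooled list (rank 93). That made 3.10 ± 0.21 (SD, n = 2) on the log2 scale, and rank 30 among the 825 peaks away from any TSS. The weaker, at 3R:14277863-14278258 and 8842 bp from the TSS, had 26.6 (rank 1133), 34.2 (rank 2011) and 61.0 (rank 1512), and it ranked 645 of the 825. The peaks were 5821 bp apart. The weaker lies in the first intron of some trx transcripts and the second of others. The trx promoter had a candidate with a pooled signal of 22.9 (rank 11371), and 13.0 in replicate 2 (rank 4986) and 20.3 in replicate 4 (rank 7130). The replicate summits lay at different positions, 278 bp from the TSS in replicate 2 and 3 bp in replicate 4. The signal stood above the median of every list and below the weakest reproducible peak in the pooled one.

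Rbbp5 encodes a core subunit shared by the COMPASS-type histone methyltransferase complexes and lies on 3L from 20345736 to 20347942, minus strand. It was the only one of the 4 histone methylation genes with a reproducible peak at the promoter, at 3L:20348066-20348461 with the summit 322 bp upstream of the TSS. The signal was 41.2 in replicate 2 (rank 465), 46.8 in replicate 4 (rank 1110) and 91.1 in the pooled list (rank 675), and the log2 values of 2.27 and 1.58 gave 1.93 ± 0.49 (SD, n = 2), the widest replicate spread of the 8. A promoter signal as high as that of Rbbp5 or higher was found at 580 coding genes.

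ash1 encodes another histone methyltransferase and lies on 3L from 19590773 to 19598755, minus strand. It held 5 candidates and no peak. The strongest was at the promoter, 111 bp upstream, with a signal of 12.4 in replicate 2 (rank 5683), 21.6 in replicate 4 (rank 5984) and 32.0 in the pooled list (rank 4868), which is similar in rank in both libraries and below the weakest peak. A very strong peak lay just outside the gene. It was centred 147 bp beyond the 3′ end of ash1 and 102 bp from the TSS of CG14100, at 3L:19590450-19590773, with a pooled signal of 672, and was the third strongest (rank 3) in the pooled list and in both replicates. By the rule used here it belongs to the CG14100 promoter and not to ash1.

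ash2, which encodes another core subunit of the COMPASS-type complexes, on 3R from 24650125 to 24653376, plus strand, held no pooled candidate region. The nearest pooled summit was 3414 bp from an ash2 TSS and beyond the 3′ end of the gene, with a signal of 44.5. Replicate 2 had a region 37 bp from an ash2 TSS, with a signal of 6.32 and rank 28713, near the end of its list, and replicate 4 had none within 500 bp.

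kis, the gene of the CHD-type remodeller Kismet, is the longest of the 9, on 2L from 210735 to 250823, minus strand, with 2 annotated TSSs. Its promoters held candidates of 33.7 and 29.7 in the pooled list. The first, at the 5′ end, had 10.2 in replicate 2 (rank 9510) and 24.7 in replicate 4 (rank 4166). The single peak of kis, at 2L:223313-223708, was 27312 bp from the 5′ end and 1549 bp upstream of the internal TSS, inside an intron of the 5 long transcripts. Its signal was 26.3 in replicate 2 (rank 1167), 68.4 in replicate 4 (rank 484) and 104 in the pooled list (rank 512), so it stood higher in replicate 4. The summit was 8 bp from the annotated start of lncRNA:CR44222, on the opposite strand. Of the candidates at the 9 genes that were not peaks, the strongest was also in kis, 2912 bp from its 5′ end, with a pooled signal of 49.4 (rank 2140).

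The order of the 8 peaks was partly fixed by the replicates. The stronger osa peak, the stronger trx peak, brm and the weaker osa peak led in that order in both libraries, and the replicate ranges of trx and brm overlapped. The replicate range of the weaker osa peak did not overlap that of Rbbp5, the next in order. Below it, Rbbp5, kis, the weaker trx peak and mor had ranges that overlapped from each to the next, so those neighbours did not differ beyond their spread. Replicate 2 and pooled summits, and replicate 4 and pooled summits, were at most 78 bp apart at all 8 peaks. All 8 were found in both libraries, as were 1837 of all 1872 reproducible peaks.

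**Figure D3:**
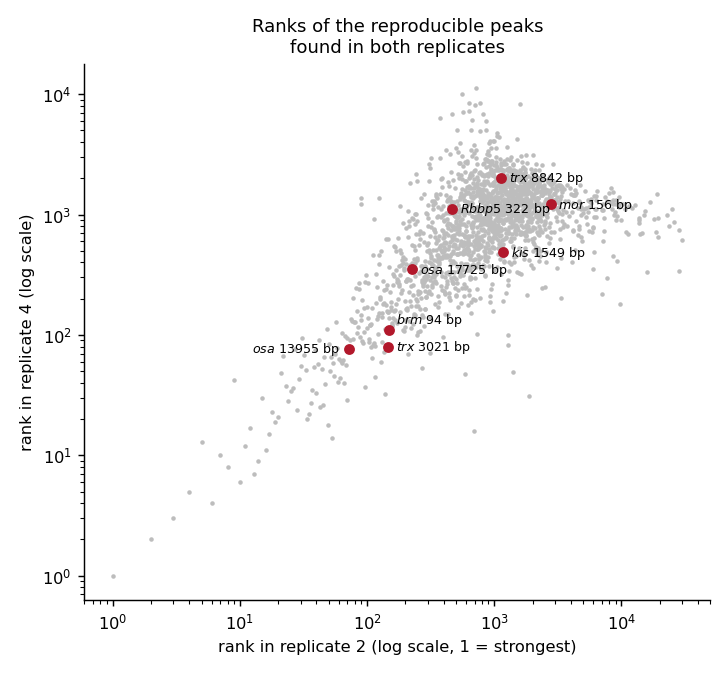
Rank of each reproducible peak in replicate 2 (horizontal) and in replicate 4 (vertical), both on log scales with 1 the strongest. Grey points are the 1837 peaks found in both replicates, and red points are the 8 peaks at the trithorax group genes, labelled with the distance to the nearest TSS of the gene. The osa peak at 13955 bp is at 72 and 77, near the diagonal, and mor, at 2772 and 1215, lies to the right of it.

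The 3 promoter peaks all stood between 2 divergent genes, meaning neighbours on opposite strands that start within 1000 bp of each other. Of the 9 genes, 6 have such a coding neighbour. The brm peak lay in the 266 bp between the starts of brm and Arl1, which encodes a small GTPase of the Golgi, nearer to brm (94 bp) than to Arl1 (172 bp). The mor peak lay in the 385 bp between mor and Hel89B, an SNF2-family ATPase gene, nearer to mor (156 bp) than to Hel89B (229 bp). The Rbbp5 peak lay in the 413 bp between Rbbp5 and eRF1, the gene of a translation termination factor, and was nearer to eRF1 (91 bp) than to Rbbp5 (322 bp). These peaks can therefore be counted for either gene, and which of them the binding concerns was not tested. The other 3 divergent members had no peak, although the gap at ash1 and Taf6 (333 bp), a TFIID subunit gene, held the candidate of 32.0. The gaps at Snr1 and mRpL44, a mitochondrial ribosomal protein gene (290 bp), and at ash2 and puf, a ubiquitin protease gene (82 bp), held no pooled region. The 3 of 6 are to be read beside 19.3% of the 5052 coding genes with a divergent neighbour, and the 0 of 3 without one (osa, trx and kis) beside 4.91% of the 8893 others.

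**Figure D4:**
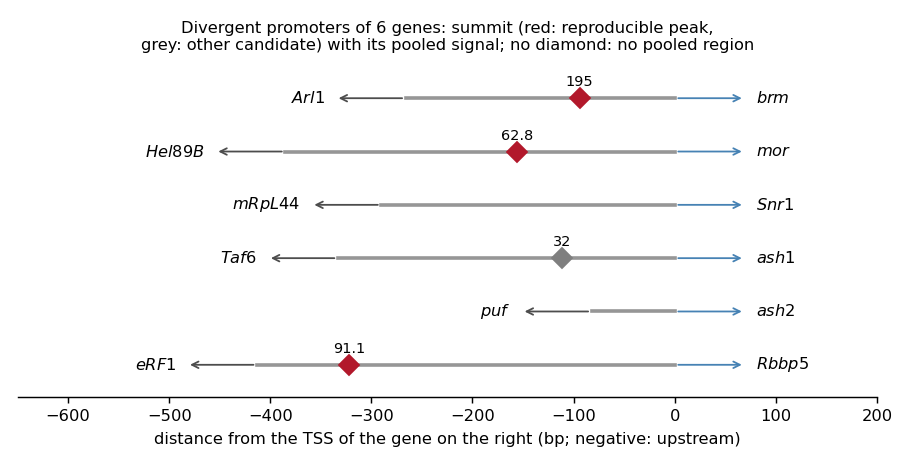
The 6 trithorax group genes with a divergent coding neighbour, drawn by distance in bp from the TSS of the gene on the right. Grey bars span the gap between the starts, red diamonds are reproducible peaks and the grey diamond another candidate, each with its pooled signal. The summit lies nearer to brm, mor and ash1 than to their neighbours, but nearer to eRF1 than to Rbbp5, and the gaps of Snr1 and ash2 are empty.

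The 3 longest members, osa, trx and kis, each had at least 1 peak in the gene body away from their own TSSs, and osa and trx had 2. Of the 1013 coding genes of 20 kb or more, 24.8% held such a peak and 8.69% held 2 or more, and the median coding gene was 2166 bp long. Counting all candidates, the body of the 7 genes that had any held 3.13 (brm) to 5.01 (ash1) regions per 10 kb, and Snr1 and ash2 held none. The value over the full length of all arms, sequence between genes included, was 2.15 per 10 kb, which is not a value for gene bodies. Most of the candidates at the 9 genes were weak. The 45 candidates that were not peaks had a median signal of 21.7, and 14 of them (31.1%) were found in both replicates, 6 (13.3%) in replicate 2 alone, 19 (42.2%) in replicate 4 alone and 6 (13.3%) in neither. The same shares over all 26878 such candidates were 29.2%, 19.2%, 42.8% and 8.81%.

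Promoter signals of Brahma subunit and histone methylation genes overlapped, with 21.0 (osa), 62.8 (mor) and 195 (brm) against 22.9 (trx), 32.0 (ash1) and 91.1 (Rbbp5) in the pooled list. A promoter peak stood at 2 of 4 Brahma genes and at 1 of 4 histone methylation genes, beside 10.1% of all coding genes and 19.3% of those with a divergent neighbour. With replicate 2 alone the Brahma count was 1 of 4, equal to the histone methylation count, beside 9.88% of all coding genes. With a promoter window of 250 bp the histone methylation count was 0, beside 7.86% of all coding genes. The median promoter signal, over the 3 genes of each kind with a region, was 62.8 for the Brahma genes and 32.0 for the histone methylation genes, a difference of 0.97 on the log2 scale. In replicate 4 alone the difference was 0.81, and in replicate 2 alone it was 0.009, over the 3 or 4 genes of each kind that had a region there. The SD of the difference over the 2 libraries was 0.57. The genes behind the medians changed as well. Snr1 entered in both replicates (7.06 in replicate 2) and ash2 in replicate 2 alone (6.32). An effect of the library on the difference can therefore not be told apart from that of the gene set. In the pooled list the Brahma median was set by mor and the histone methylation median by ash1. Both stand far from brm and Rbbp5, the strongest of each kind.

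**Figure D5:**
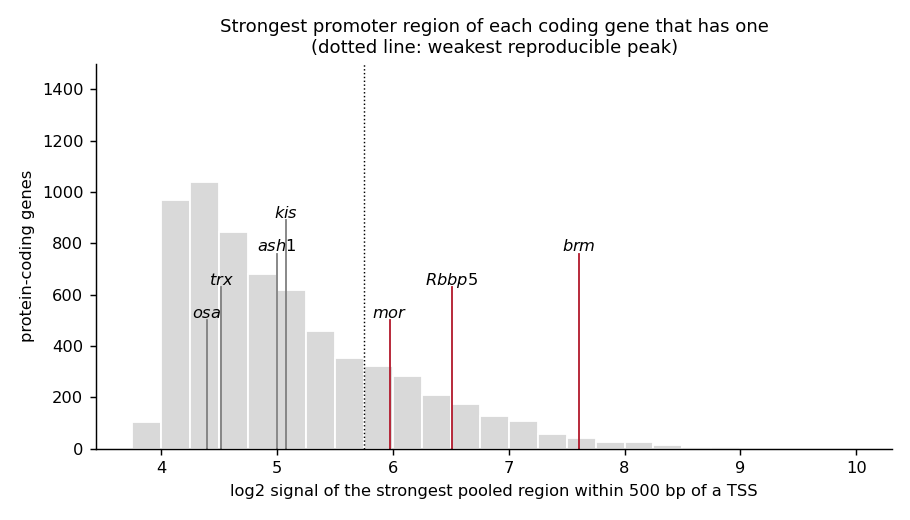
Log2 of the strongest pooled promoter signal (horizontal) of the 6482 protein-coding genes with a promoter candidate, as counts of genes (vertical). Lines mark the 7 trithorax group genes with such a region, red for reproducible peaks, and the dotted line marks the weakest peak. osa and trx lie below the median of all genes (28.8), ash1 and kis above it, and mor, Rbbp5 and brm beyond the dotted line.

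A wider list of 39 trithorax-linked genes, counted by role, had a promoter peak at 4 genes (10.3%), against 10.1% of all coding genes. A promoter candidate stood at 29 of the 39, against 46.5% of all coding genes, with a median strongest signal of 30.1 against 28.8 over all coding genes with one. Of the 9 further Brahma complex genes, 1 had a peak, Brd7-9, a bromodomain gene, with a pooled signal of 74.0 and ranks of 1085 in replicate 2 and 1041 in replicate 4. None of 13 genes of the Trithorax, Trithorax-related and Set1 complexes had one, and none of 2 of the Ash1 complex. The nearest was Utx, a histone demethylase gene among the 13, at 49.2 (rank 2154). Its ranks were 1312 in replicate 2 and 5870 in replicate 4, so with the strongest 1872 regions of replicate 2 alone Utx was counted, and the 0 of 13 depends on the library. Of 15 other trithorax group and remodeller genes, 3 had a promoter peak. These were skd, a Mediator subunit gene, at 90.6 (ranks 660 and 811), Trl, which encodes GAGA factor, at 59.4 (no region in replicate 2, rank 826 in replicate 4), and Chd1, a remodeller gene, at 57.6 (ranks 654 and 5043). With the members added, promoter peaks were found at 3 of 13 Brahma genes and 1 of 19 histone methylation genes. These were brm, mor and Brd7-9 against Rbbp5. The 19 include all genes listed for the Trithorax, Trithorax-related, Set1 and Ash1 complexes, Utx among them. Replicate 4 alone gave the same genes. With replicate 2 alone they were brm and Brd7-9 against Rbbp5 and Utx. The stronger 936 peaks left brm against Rbbp5, with a share of 5.51% over all coding genes. A promoter window of 250 bp left brm and mor against none, with a share of 7.86%. This contrast therefore depended on the setting.

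Trl also held 2 peaks away from its TSSs, one with a signal of 319 and ranks of 26 and 36, stronger than any at the 9 genes, and one of 109. Named after their values were seen, Mi-2, a remodeller ATPase gene, had peaks of 86.0 and 60.6 in its first intron, and tna had one of 83.2. The Mi-2 peak of 60.6 ranked 28362 in replicate 2 and 738 in replicate 4, so it rests on replicate 4.

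The coding genes whose promoter peaks came closest to the 3 promoter peaks in log10 rank over the 2 libraries were named as a description of level only. For brm they were Adck1 and CG4741, which share 1 peak at ranks 138 and 112. For Rbbp5 they were CG10660 (450 and 1122) and CG15771 (492 and 1129). For mor they were Hsp26 (2790 and 1214) and CG13531 (2794 and 1206). Within 5 kb outside the 9 genes, and apart from the CG14100 peak beside ash1, 3 further peaks stood near mor, trx and Snr1. One was 1443 bp before the 5′ end of mor, inside Hel89B, with a pooled signal of 93.0 (ranks 487 and 975), higher than that of the mor promoter itself. One was 1926 bp before the 5′ end of trx, near red, at 53.8, and one 3722 bp before the 5′ end of Snr1, near RpL35A, at 70.1.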

How the data were processed

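The deposited signal values were taken from narrowPeak lists on dm6, for each replicate, for both pooled and for the reproducible peaks. Per the deposited read-me files, the authors called regions on each replicate, and on the pooled replicates, against 1 control, and derived the reproducible peaks from those lists by the irreproducible discovery rate. For the aligner, the peak caller, the rate's threshold and the scale of the signal, details are not given in the sources. Lists on dm3 were not used.

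Genes were those of Ensembl release 115 on the same assembly, without transposable elements. Summits were matched to TSSs within 500 bp and to gene bodies, and pooled summits were looked up in the regions of each replicate, with Python 3.11.15, pandas 2.3.3 and numpy 2.4.6. Placement was tested on simulated data. Sequences came from RefSeq. There is 1 group of 2 libraries, so no p-value was computed, and the SD between libraries may be technical. Depth is unknown and no counting interval was given. All 9 members are named, with neighbours within 1000 bp, peak-bearing genes of the wider list and the 2 most alike genes of each promoter peak. The members and lists were chosen with earlier results of these data known. Alternatives were promoter windows of 250 and 1000 bp, the stronger 936 peaks, each replicate alone, any base in place of the summit, only the TSS at the 5′ end and a reciprocal overlap of 50%. RefSeq transcript starts were added after seeing the data.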

Additional observations from a re-analysis of the deposited data

How the results depend on the processing

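The 3 promoter peaks among the 9 genes became 2 with a window of 250 bp (brm and mor), with the stronger 936 peaks and with replicate 2 alone (both brm and Rbbp5), and stayed 3 with a window of 1000 bp, replicate 4 alone, any base, the 5′ TSS only and RefSeq starts, an alternative chosen after seeing the data. The Brahma count was 1 with the stronger 936 peaks, and ranged from 1 to 2 when each library was left out. The histone methylation count was 0 at 250 bp. The wider list count was 1 at 250 bp, where the share of all coding genes was 7.86%. It was also 1 with the stronger 936 peaks, where that share was 5.51%. The 4 wider list genes were Brd7-9, Utx, skd and Chd1 with replicate 2 alone, and Brd7-9, Trl, skd and lolal with replicate 4 alone. The log2 difference between Brahma and histone methylation genes ranged from 0.009 to 0.813 when each library was left out, with the set of genes also changing. The difference was 1.19 at 250 bp and 1.10 with gene bodies included. With any base of a region counted, ash1 joined the genes with a peak at the promoter or in the body (7 of 9), through the edge of the CG14100 region. No share over all coding genes is given for that looser rule, and the 13.0% stated above is for summits. A reciprocal overlap of 50% gave the same rank at the 13 look-ups that had a match. Under it the brm peak had no match in either replicate, and the stronger osa peak had none in replicate 2. No paired analysis was possible because there is 1 group. The unknown depth limits what a missing region at Snr1 or ash2 can show.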
